A study of Mus musculus with 8 samples.

Results

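The transcripts described here encode the Ormdl proteins and the subunits of serine palmitoyltransferase, 8 genes picked by name: Ormdl1, Ormdl2, Ormdl3, Sptlc1, Sptlc2, Sptlc3, Sptssa and Sptssb. Each was read from the array probe annotated to that gene alone, and from the brightest over the 8 tumours if there were several. Of the 8 genes, 7 had such a probe, among 22180 genes on the array that did, and 6 were bright enough to be tested, among 16635. The only probe of Sptssa is shared with a microRNA gene, so Sptssa has no value here. Sptssb stayed below the bound of 4.06 on the log2 scale under which the dimmest 25% of genes were set aside, so its values are given without a test. Ormdl3 was included because its difference between the genotypes was already known, so that difference is given as a description and supports nothing further.

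The samples were 8 primary mammary tumours from transgenic FVB mice, with total RNA hybridised to Affymetrix whole-transcript arrays, 1 array per tumour. All 8 carried NeuNT, a transgene of Neu, the rodent form of the receptor tyrosine kinase ErbB2, and in 4 of them (NeuNT) p110α, a catalytic subunit of the lipid kinase PI3K, was wild type. In the other 4 (NeuNT/H1074R) p110α was mutant, with the change written H1047R in the title of the series, and no mouse was treated. The labels name neither the promoter of a transgene, nor the age of the mice, nor whether each tumour is from a different mouse, so a p-value covers only the variation among the tumours at hand. Replicates are numbered 1 to 4 within a genotype, and the numbers pair nothing. The mammary epithelial markers were present in every tumour, with a mean log2 signal over 10 of 10 listed markers of 9.71 to 9.78 in NeuNT and 9.31 to 10.06 in NeuNT/H1074R.

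Serine palmitoyltransferase joins serine to palmitoyl-CoA in the membrane of the endoplasmic reticulum, the first and rate-limiting step in making ceramide and all other sphingolipids. Its core pairs Sptlc1 with either Sptlc2 or Sptlc3, and the small subunits Sptssa and Sptssb raise its activity and shape its choice of fatty acid. The Ormdl proteins bind this complex and restrain it when ceramide is plentiful. In the mouse genome Ormdl3 lies a few genes from Erbb2, whereas Ormdl1 and Ormdl2 lie on other chromosomes.

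The 3 Ormdl genes code for closely related proteins, but the sequences before their start sites differ. Whether these sequences bear on the signals of the 3 transcripts in the tumours was not tested. Each line gives the 250 bases before the annotated start, 5′ to 3′ on the gene's strand, from RefSeq (GRCm38.p6), in which all 3 genes were found. Ormdl1 is at chr1:53296845-53297094 on the plus strand, Ormdl2 at chr10:128821630-128821879 on the minus strand and Ormdl3 at chr11:98587246-98587495 on the minus strand. Capitals mark matches, on either strand, to the CCAAT box, the GC box GGGCGG and the cAMP response element core TGACGT.
Ormdl1: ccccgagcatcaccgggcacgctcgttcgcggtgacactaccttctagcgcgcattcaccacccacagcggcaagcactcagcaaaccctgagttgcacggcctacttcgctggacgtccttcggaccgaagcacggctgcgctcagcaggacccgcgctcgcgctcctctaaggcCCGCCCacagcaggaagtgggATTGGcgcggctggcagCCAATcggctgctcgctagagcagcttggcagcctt
Ormdl2: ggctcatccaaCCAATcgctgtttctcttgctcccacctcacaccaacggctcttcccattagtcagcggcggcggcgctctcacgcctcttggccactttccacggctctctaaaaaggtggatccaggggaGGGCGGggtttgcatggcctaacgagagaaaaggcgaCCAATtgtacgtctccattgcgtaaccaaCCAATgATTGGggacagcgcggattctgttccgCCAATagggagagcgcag
Ormdl3: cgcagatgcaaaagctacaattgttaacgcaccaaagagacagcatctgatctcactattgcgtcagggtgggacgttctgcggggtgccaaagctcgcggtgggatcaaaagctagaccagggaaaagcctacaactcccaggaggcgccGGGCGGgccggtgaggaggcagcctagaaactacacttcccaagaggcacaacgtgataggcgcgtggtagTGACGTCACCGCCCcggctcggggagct

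The Ormdl3 window held 2 overlapping matches to TGACGT, from 28 to 21 bases before the start, which together read the same on both strands, and the last run of capitals joins them to a GC box. This motif was in 6.56% of the windows of 27025 genes and in neither of the other Ormdl windows. The Ormdl2 window held 5 CCAAT matches, 4 of them in the last 80 bases, and the Ormdl1 window held 2, while Ormdl3 had 0 (34.5% of windows held at least 1). GC boxes were found in all 3 windows (1 in Ormdl1, 1 in Ormdl2 and 2 in Ormdl3, against 32.9% of windows with at least 1). The FoxO motif GTAAACA, the ETS motif CCGGAAG, the E-box CACGTG and the TATA motif TATAAA were also searched and had 0 matches in these 3 windows. They occur in 3.09%, 7.05%, 6.05% and 13% of windows. Only these exact sequences were searched, so other forms of such sites may be present. The windows held 25 CpG dinucleotides in Ormdl1, 17 in Ormdl2 and 18 in Ormdl3, against a median of 6 over all windows.

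Ormdl3 was higher in every NeuNT/H1074R tumour than in any NeuNT tumour. Its log2 signals were 6.37, 6.63, 6.52 and 6.55 in NeuNT replicates 1 to 4, and 7.20, 7.28, 7.38 and 6.92 in NeuNT/H1074R replicates 1 to 4. The genotypes were separated by a gap of 0.29, between NeuNT replicate 2 and NeuNT/H1074R replicate 4, the lowest of its group. The means were 6.52 ± 0.11 (SD, n = 4) and 7.19 ± 0.20 (SD, n = 4), a log2 difference of 0.67, or 1.60-fold. Only 2 tested genes had a smaller unadjusted p, and that rank is what drew attention to Ormdl3. With Benjamini-Hochberg adjustment in limma 0 of the 16635 genes, or 0.0%, passed 0.05, Ormdl3 included, and 635 (3.82%) had an unadjusted p under 0.05. Groups that did not overlap were found for 2.69% of tested genes, and for 1.59% with NeuNT/H1074R the higher.

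The other Ormdl genes did not share this pattern. Ormdl1 had log2 signals of 6.89, 6.56, 7.61 and 6.84 in NeuNT and 6.52, 6.58, 6.66 and 6.73 in NeuNT/H1074R. The NeuNT/H1074R tumours lay close together (SD 0.09, against 0.45 in NeuNT), NeuNT replicate 3 was the highest of all, and the groups overlapped. The log2 difference, NeuNT/H1074R minus NeuNT, was −0.35 ± 0.22 (SE), with a 95% interval of −0.84 to 0.14, and did not pass (limma, adjusted p = 0.978). It was −0.14 without NeuNT replicate 3. It was −0.49 without NeuNT replicate 2, the lowest of its group, and the groups then did not overlap, as for 5.16% of tested genes. Without NeuNT replicates 2 and 4 it was −0.63, again without overlap, as for 13.9% of tested genes.

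Ormdl2 had log2 signals of 9.87, 9.26, 9.43 and 9.63 in NeuNT and 9.38, 9.38, 9.40 and 9.44 in NeuNT/H1074R. The NeuNT/H1074R tumours again lay close together, for this gene inside the range of NeuNT (SD 0.03, against 0.26). The difference in spread was not tested for Ormdl1 or Ormdl2. The log2 difference was −0.15 ± 0.14 (SE), with a 95% interval of −0.47 to 0.18 (limma, adjusted p = 0.978), and it was −0.04 without NeuNT replicate 1. The array has a second Ormdl2 probe that it shares with a neighbouring gene, and that probe was not used.

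**Figure D1:**
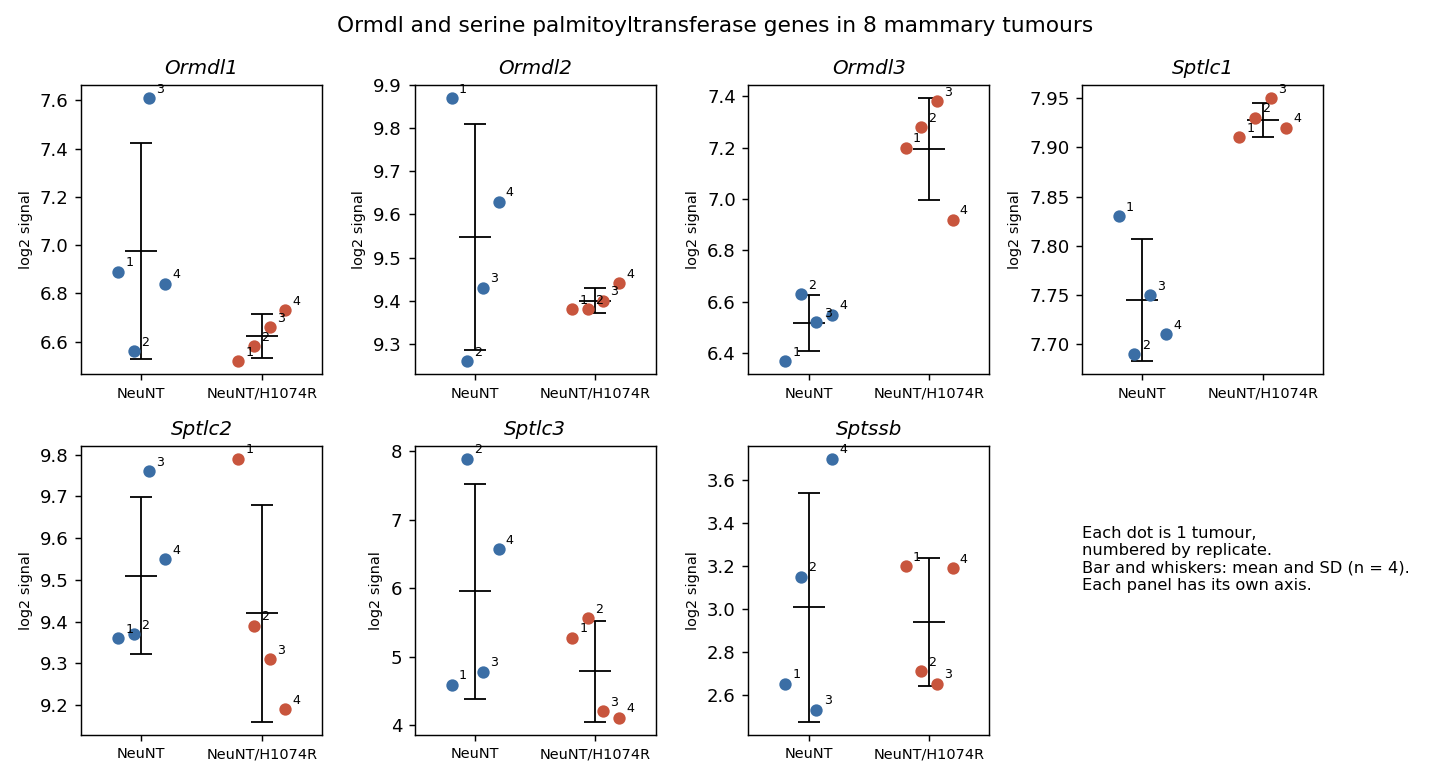
Log2 signal of the 7 measured genes in each tumour, by genotype, with the replicate number beside each dot and the mean and SD (n = 4) as bar and whiskers; each panel has its own axis. The genotypes are apart for Ormdl3 (6.37 to 6.63 against 6.92 to 7.38) and for Sptlc1 (7.69 to 7.83 against 7.91 to 7.95), and overlap in the other 5 panels. Groups that do not overlap were found for 2.69% of all tested genes.

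Among the subunits of the enzyme, the shared subunit Sptlc1 had a slightly higher mean in NeuNT/H1074R, a difference that was not significant. Its log2 signals were 7.83, 7.69, 7.75 and 7.71 in NeuNT and 7.91, 7.93, 7.95 and 7.92 in NeuNT/H1074R. The groups did not overlap, with a gap of 0.08, as for 1.59% of tested genes with NeuNT/H1074R the higher. The log2 difference was 0.18 ± 0.10 (SE), or 1.13-fold, with a 95% interval of −0.05 to 0.41. It did not pass (limma, unadjusted p = 0.111, adjusted p = 0.978). Sptlc1 varied very little within a genotype: its residual SD was 0.05, against a median of 0.25 over the tested genes, and only 20 of them had a smaller one. limma draws such a low spread towards that of genes of similar signal, which raised the SE from the gene's own 0.03 to 0.10.

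The catalytic subunit Sptlc2 overlapped widely between the groups. It had log2 signals of 9.36, 9.37, 9.76 and 9.55 in NeuNT and 9.79, 9.39, 9.31 and 9.19 in NeuNT/H1074R, where replicate 1 was the highest of the 8 tumours and replicate 4 the lowest. The log2 difference was −0.09 ± 0.16 (SE), with a 95% interval of −0.46 to 0.28 (limma, adjusted p = 0.98). It was −0.22 when NeuNT/H1074R replicate 1 was left out, and −0.01 when either NeuNT replicate 3 or NeuNT/H1074R replicate 4 was.

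Sptlc3, the alternative catalytic subunit, which makes sphingoid bases of other chain lengths, varied most. Its log2 signals were 4.59, 7.89, 4.78 and 6.57 in NeuNT and 5.28, 5.56, 4.21 and 4.11 in NeuNT/H1074R. NeuNT replicates 2 and 4 were high, and the other 6 tumours lay between 4.11 and 5.56. The log2 difference of −1.17 ± 0.73 (SE), with a 95% interval of −2.84 to 0.50, did not pass (limma, adjusted p = 0.978). It was −0.53 without NeuNT replicate 2 and 0.10 without NeuNT replicates 2 and 4, the latter a fit added with the values in view. Sptssb was dim throughout, at 2.65, 3.15, 2.53 and 3.70 in NeuNT and 3.20, 2.71, 2.65 and 3.19 in NeuNT/H1074R, and its groups overlapped.

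The basal and squamous markers also varied among the tumours, but the pair with high Sptlc3 was not set apart by the mean of either list. The mean log2 signal of 7 of 8 listed basal and myoepithelial markers was 9.79 in NeuNT replicate 2, the highest of all, and 8.69 in NeuNT replicate 4. It was also 8.84 and 9.27 in NeuNT/H1074R replicates 1 and 3, where Sptlc3 was 5.28 and 4.21, and 6.57 to 6.76 in the remaining 4 tumours. The basal markers differed among themselves. Trp63 was highest in NeuNT replicates 2 and 4 (8.44 in each, against 4.87 to 7.65 elsewhere). Krt14 and Krt17 were highest in NeuNT/H1074R replicate 1, and Acta2, Myh11, Cnn1 and Mylk in NeuNT replicate 2. The mean of 11 of 12 squamous markers was highest in NeuNT replicate 4 (9.56), followed by NeuNT/H1074R replicates 1 and 3 (7.23 and 6.98), and was 5.30 in NeuNT replicate 2. Their part in the Sptlc3 values was not tested. In whole tumours, fewer cells of a type and less RNA per cell cannot be told apart.

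**Figure D2:**
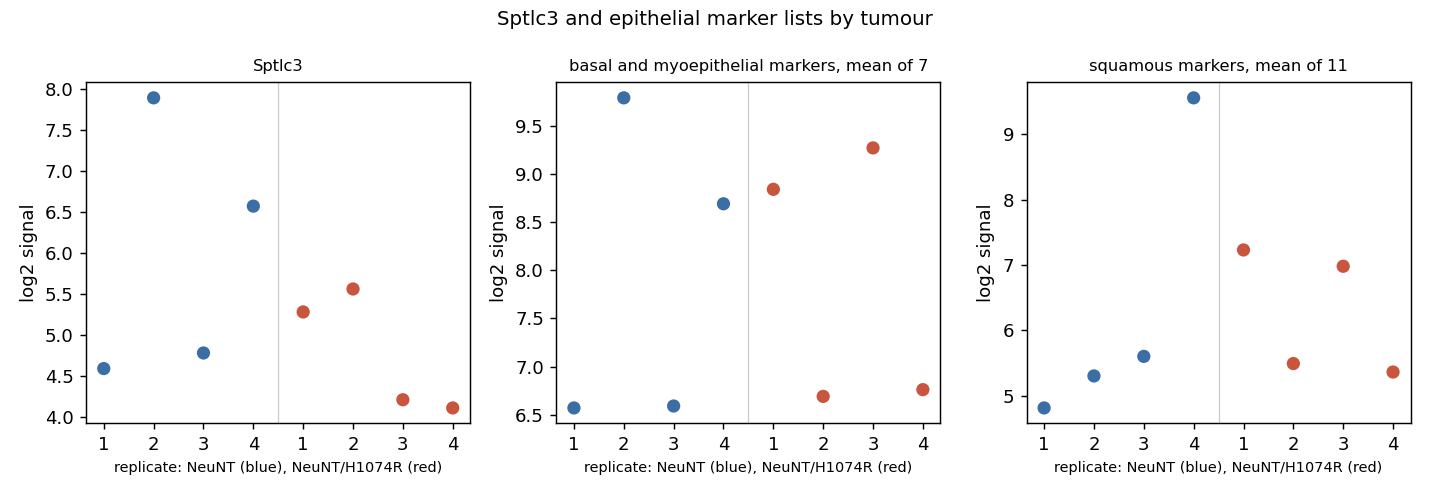
Log2 signal of Sptlc3 (left), and mean log2 signal of 7 basal and myoepithelial markers (middle) and 11 squamous markers (right), in each tumour; blue dots are NeuNT and red dots NeuNT/H1074R, by replicate, and each panel has its own axis. Sptlc3 is highest in NeuNT replicates 2 (7.89) and 4 (6.57), whereas the basal markers are also high in NeuNT/H1074R replicates 1 and 3.

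The genes around Ormdl3 varied widely from tumour to tumour, and in other tumours than Ormdl3 did. The 5 nearest tested genes on the Erbb2 side are Pgap3, Erbb2, Mien1, Grb7 and Ikzf3, and on the other side Lrrc3c, Gsdma, Psmd3, Csf3 and Med24. The genes Zpbp2, Gsdma2 and Gsdma3, which lie among them, were dim. The residual SD within a genotype had a median of 1.09 over these 10 neighbours, from 0.13 in Lrrc3c to 2.03 in Gsdma, against 0.16 in Ormdl3 and a median of 0.25 over all tested genes. Of the 10, 9 exceeded Ormdl3, as did 80.1% of all tested genes, 9 of the 10 neighbours of Ormdl1 and 8 of the 10 of Ormdl2. Of the 10, 8 had a higher mean in NeuNT/H1074R (49.5% of tested genes did), 5 differed by more than 0.5 (6.56% of tested genes did), and 0 had groups that did not overlap. None passed (limma, smallest adjusted p = 0.978), and 0 had an unadjusted p under 0.05. The median difference of 0.49 and the count of 8 changed with the tumours used. With NeuNT/H1074R replicates 1 and 3 left out the median was 0.03 and the count 5. With NeuNT replicate 2 left out they were 0.10 and 6. More than 0.5 was found in these 2 fits for 4 and 6 of the 10, against 14.8% and 7.51% of tested genes. The median and count were larger without NeuNT replicate 1 (0.59 and 9) and without NeuNT replicate 4 (0.67 and 9). Without NeuNT replicates 2 and 4, a pair chosen with the values in view, the median was 0.57 and the count 7. In that fit 7 of the 10 differed by more than 0.5 (8.68% of tested genes did). Groups did not overlap there for 6 of the 10, against 13.9% of tested genes.

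On the Erbb2 side, the highest tumour for each of the 5 genes was NeuNT, and so was the lowest. Grb7, an adaptor of receptor kinases, had log2 signals of 8.93, 8.48, 12.06 and 11.50 in NeuNT and 10.99, 11.55, 11.08 and 11.76 in NeuNT/H1074R. The difference was 1.1 ± 0.78 (SE), and ran from 0.52 without NeuNT replicate 2 to 1.71 without NeuNT replicate 3. Replicates 1 and 2 of NeuNT were low for Grb7, and Ormdl3 in these tumours (6.37 and 6.63) bracketed its values in replicates 3 and 4. Erbb2 was highest in NeuNT replicate 1 (10.28), the tumour of lowest Ormdl3, and lowest in NeuNT replicate 2 (8.73), which had the highest Ormdl3 among NeuNT. Its difference was −0.23 ± 0.33 (SE), and 0.03 without NeuNT replicate 1. Pgap3, a remodelling enzyme for GPI anchors, was 8.10 in NeuNT replicate 2 against 9.99 to 11.88 elsewhere, and Ikzf3, a lymphocyte transcription factor and the nearest tested gene on that side, was 7.0 in NeuNT replicate 4 against 4.31 to 5.01 elsewhere.

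On the far side, Psmd3 and Med24 were high in NeuNT/H1074R replicates 1 and 3. Psmd3, a proteasome subunit, had log2 signals of 7.91, 8.37, 8.43 and 8.42 in NeuNT and 10.95, 8.12, 10.84 and 8.01 in NeuNT/H1074R. Med24, a subunit of the Mediator complex, was likewise 10.42 and 10.23 in these 2 tumours and 7.42 to 8.98 in the other 6. The differences were 1.20 ± 0.70 (SE) and 1.01 ± 0.71 (SE). Ormdl3 was 7.20 and 7.38 in the pair with high Psmd3. It was 7.28 and 6.92 in NeuNT/H1074R replicates 2 and 4, where Psmd3 was 8.12 and 8.01. In a fit without NeuNT/H1074R replicates 1 and 3, added with the values in view, the difference was 0.58 for Ormdl3, −0.22 for Psmd3 and −0.30 for Med24. Whether the signals of the neighbours on either side bear on the Ormdl3 difference was not tested. Gsdma, an epithelial pore-forming protein, had 4.56, 3.94, 5.14 and 9.24 in NeuNT and 7.06, 5.12, 8.35 and 5.16 in NeuNT/H1074R, so that NeuNT replicate 4 was its highest tumour. Csf3, a granulocyte growth factor, ran from 5.52 to 6.48 in NeuNT and from 5.92 to 7.56 in NeuNT/H1074R. Lrrc3c, the nearest tested gene on this side, lay between 5.83 and 6.17 in all 8 tumours, with a log2 difference of 0.09 ± 0.12 (SE).

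The surroundings of Ormdl1 and Ormdl2 varied less. The 10 nearest tested genes of Ormdl1, on chromosome 1, had a median residual SD of 0.27, with 1 differing by more than 0.5 (Stk17b, a kinase gene, at −0.57 and named for that value), and those of Ormdl2, on chromosome 10, had a median of 0.30 with 0 beyond 0.5. In both sets 0 of 10 had groups that did not overlap. Their median differences were 0.08 and −0.07, or 0.15 and −0.05 in the fit lacking NeuNT/H1074R replicates 1 and 3, where that around Ormdl3 was 0.03. These figures were not tested against one another.

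**Figure D3:**
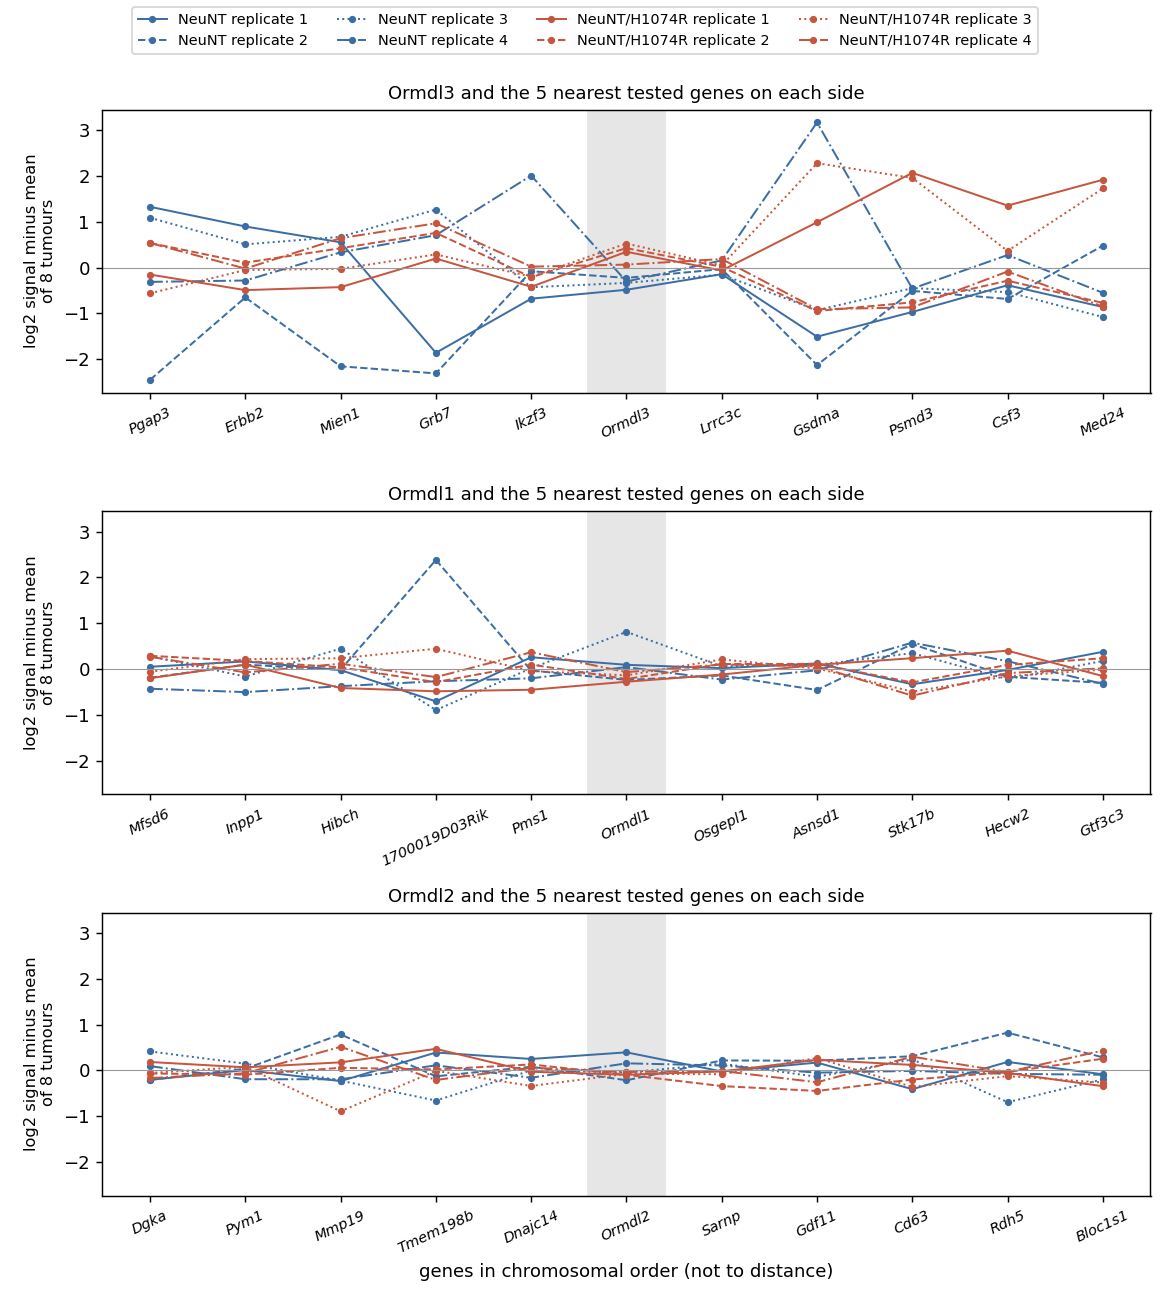
Log2 signal minus the mean of the 8 tumours for Ormdl3 (top), Ormdl1 (middle) and Ormdl2 (bottom), shaded, and the 5 nearest tested genes on each side in chromosomal order; each line is 1 tumour, blue for NeuNT and red for NeuNT/H1074R. The lines spread widely around Ormdl3 (median residual SD 1.09) and draw together at Ormdl3 and Lrrc3c, whereas those around Ormdl1 and Ormdl2 mostly lie closer to 0 (medians 0.27 and 0.30).

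The relation of Ormdl3 to the other members within the genotypes changed with single tumours. Because its values fall into separate groups by genotype, no correlation over the pooled tumours is given with the other members or Erbb2, and 4 tumours per genotype are too few to test one within a group. Deviations from the genotype means over the 8 tumours had a Pearson r with Ormdl3 of −0.41 for Erbb2, −0.21 for Ormdl1, −0.50 for Ormdl2, −0.28 for Sptlc1, 0.23 for Sptlc2, 0.50 for Sptlc3 and −0.11 for Sptssb. Leaving out 1 tumour at a time, r ran from 0.36 to 0.76 for Sptlc3, highest without NeuNT/H1074R replicate 3, and from −0.73, without NeuNT/H1074R replicate 4, to −0.30, without NeuNT replicate 1, for Ormdl2. The sign stayed the same for these genes, for Ormdl1 (−0.55 without NeuNT replicate 3 to −0.02 without NeuNT replicate 2) and for Erbb2 (−0.61 without NeuNT/H1074R replicate 4 to −0.18 without NeuNT replicate 1). The sign changed for Sptlc1 (−0.64 without NeuNT/H1074R replicate 4 to 0.20 without NeuNT replicate 1), Sptlc2 (−0.32 without NeuNT/H1074R replicate 4 to 0.44 without its replicate 3) and Sptssb (−0.33 without NeuNT replicate 1 to 0.20 without NeuNT/H1074R replicate 4). Without NeuNT replicates 2 and 4, r was −0.79 for Sptssb and 0.13 for Ormdl1. These r are descriptions.

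The genes closest in pattern to each member were ranked over all tested genes. By Pearson r over the 8 tumours, which for Ormdl3 and Sptlc1 holds the step between genotypes as well as the variation within them, the tested genes most like Ormdl3 were the metallothionein Mt3 (0.948), Tmco5b (0.939), Rec114, a gene of meiotic recombination (0.925), Fam47e (0.912), the serine protease gene Prss54 (0.909), the potassium channel subunit Kcnmb3 (0.90) and Fam131c (0.896), with 1 predicted gene among the first 8. After the genotype means were removed, r with Ormdl3 was 0.597 for Mt3, 0.835 for Tmco5b, 0.935 for Rec114 and between 0.439 and 0.679 for the other 4 named. Mt3 had log2 signals of 4.59 to 4.79 in NeuNT and 4.98 to 5.08 in NeuNT/H1074R. Tmco5b ran from 3.73 to 4.55 and Kcnmb3 from 4.06 to 4.55 over the tumours, near the bound of 4.06 for dim genes. The most opposed were the transcription factor Mlx (−0.954), the ubiquitin ligase component Fbxo28 (−0.952) and Ppp4r3b, a phosphatase subunit (−0.950), with −0.605, −0.887 and −0.641 after the genotype means were removed. For Sptlc1 the 5 most alike were Sil1, a co-chaperone of the endoplasmic reticulum (0.976), Eola1 (0.949), the methyltransferase Mettl21a (0.943), Mcee (0.941) and the muscle transcription factor Myf5 (0.939). With the genotype means removed, r with Sptlc1 was 0.858, 0.89, 0.786, 0.743 and 0.653, in the same order. For Ormdl1, Mtch2 (0.979) and Cox5b (0.971), genes of mitochondrial proteins, and Get4 (0.968) were named, with 2 predicted genes or clones among the first 5. For Ormdl2 the 5 were Dspp (0.973), Unc5c (0.965), Cox5a (0.945), Wdr54 (0.940) and Tubb4b (0.928), and for Sptlc2 they were the collagen receptor Mrc2 (0.985), Rbms1 (0.966), the TNF receptor Tnfrsf1b (0.950), Gcnt4 (0.949) and Ttyh3 (0.943). The genes named for Ormdl1 were all highest in NeuNT replicate 3, and those for Ormdl2 in NeuNT replicate 1, as were these members themselves. These r rank genes over the same 8 tumours and were not tested.

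No gene of the wider sphingolipid pathway passed the test either. Of 68 listed genes 61 were tested, and 0 passed over all genes (limma, smallest adjusted p = 0.978). An unadjusted p under 0.05 was found for 2, against 3.82% of all tested genes. Groups did not overlap for 0, against 2.69% of tested genes. A higher mean in NeuNT/H1074R was found for 23 and a lower one for 38, where 49.5% of all tested genes had a higher one. That share also stands beside the counts of each list below, and no count of direction was tested.

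In the steps that turn the product of the enzyme into ceramide, 3 of 8 tested genes had a higher and 5 a lower mean in NeuNT/H1074R, with a median log2 difference of −0.12, against −0.003 over all tested genes. Cers5, a ceramide synthase that prefers palmitoyl-CoA, had log2 signals of 6.80 to 7.37 in NeuNT and 7.37 to 7.61 in NeuNT/H1074R, a difference of 0.33 ± 0.15 (SE) that was 0.22 without NeuNT replicate 4. Degs1, the desaturase that makes ceramide from dihydroceramide, ran from 7.68 to 8.57 and from 6.88 to 8.06, a difference of −0.64 ± 0.30 (SE) that was −1.1 without NeuNT/H1074R replicates 1 and 3. Cers6 differed by −0.58 ± 0.29 (SE), and by −0.34 without NeuNT/H1074R replicate 4.

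Genes that build complex sphingolipids or carry ceramide were lower on average for 9 of 13, with a median log2 difference of −0.30. Ugcg, which adds glucose to ceramide, had log2 signals of 7.19, 7.29, 7.27 and 8.28 in NeuNT and 7.38, 6.93, 6.58 and 6.17 in NeuNT/H1074R. The glycolipid transfer protein Gltp had 8.30, 8.63, 8.95 and 10.51 against 8.56, 8.13, 7.88 and 7.78. The differences were −0.74 ± 0.32 (SE) and −1.01 ± 0.44 (SE), and −0.48 and −0.54 without NeuNT replicate 4. That tumour, the highest for both genes, also had the highest mean of the squamous markers (9.56), whose part in these values was not tested. Sgms1, a sphingomyelin synthase, differed by −0.30 ± 0.15 (SE).

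Genes of sphingolipid breakdown and of sphingosine phosphate had a higher mean in 7 and a lower one in 19 of 26, with a median log2 difference of −0.07. The neutral sphingomyelinase Smpd2 differed by −0.28 ± 0.13 (SE), or −0.16 without NeuNT/H1074R replicates 1 and 3. The sphingosine kinase Sphk1 had 6.64, 7.26, 5.90 and 5.58 in NeuNT and 5.71 to 5.94 in NeuNT/H1074R, a difference of −0.56 ± 0.34 (SE) that was −0.26 without NeuNT replicate 2. S1pr5, a receptor for sphingosine phosphate, differed by 0.25 ± 0.15 (SE), or 0.16 without NeuNT/H1074R replicate 3 and 0.10 without its replicates 1 and 3.

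Genes that supply serine and palmitoyl-CoA had a higher mean in 9 and a lower one in 5 of 14, with a median log2 difference of 0.09. Acacb, an acetyl-CoA carboxylase, had the smallest unadjusted p of the 61 (0.0217), with log2 signals of 4.67 to 5.21 in NeuNT and 5.13 to 5.67 in NeuNT/H1074R and a difference of 0.48 ± 0.17 (SE). The stearoyl-CoA desaturase Scd1 differed by 0.56 ± 0.33 (SE), by 0.29 without NeuNT replicate 4 and by 0.88 without NeuNT replicate 3. The acyl-CoA synthetase Acsl5 differed by −0.25 ± 0.15 (SE), or −0.13 without NeuNT replicate 3.

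**Figure D4:**
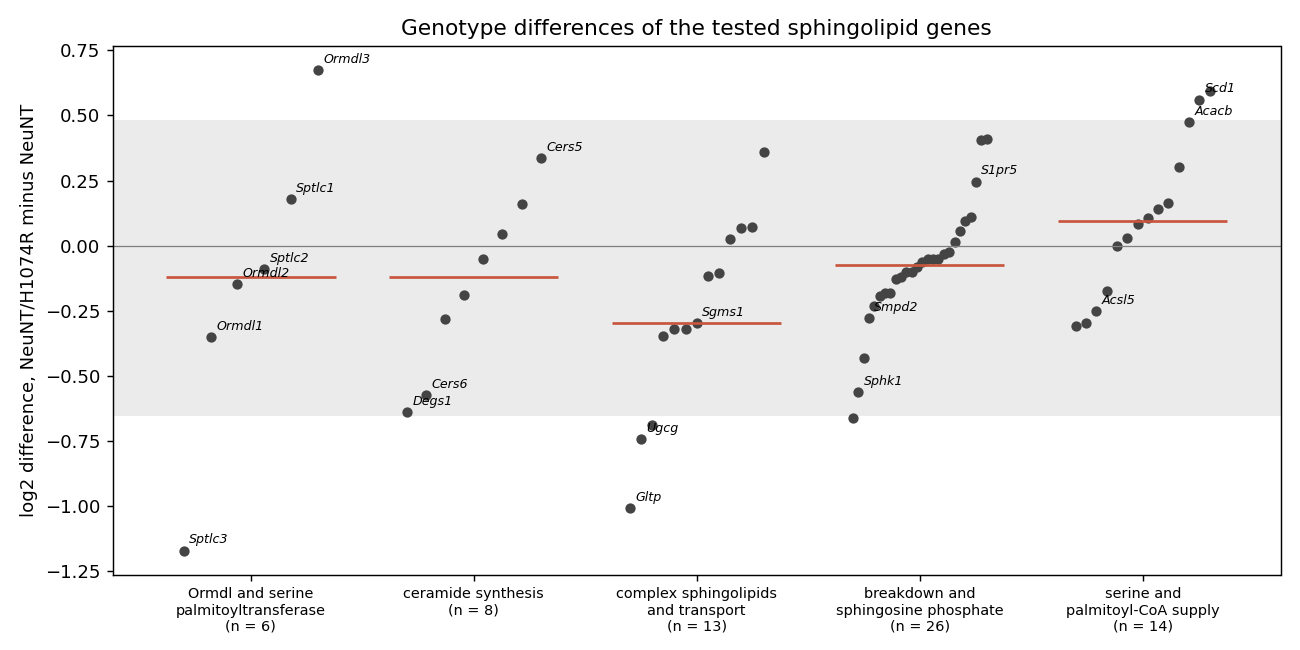
Log2 difference (NeuNT/H1074R minus NeuNT) of each tested gene in the Ormdl and serine palmitoyltransferase group and in 4 lists of related genes; red lines are list medians, and the grey band holds the central 95% of all tested genes (−0.65 to 0.48). Ormdl3 (0.67) lies above the band and Sptlc3 (−1.17) below it, and 6 of the 61 other pathway genes lie outside it.

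Markers of other cell types also varied among the tumours. Skeletal muscle markers, 9 of 10 tested with Mylpf dim, had a mean log2 signal of 4.76 to 5.54 in NeuNT and 5.04 to 7.22 in NeuNT/H1074R, high in replicates 1 and 3, and 5 of the 9 had groups that did not overlap, against 1.59% of tested genes in that direction. Without those 2 tumours Ormdl3 differed by 0.58 and Sptlc1 by 0.17. The mean was 6.14 to 7.44 in NeuNT against 5.66 to 6.50 in NeuNT/H1074R for adipocyte markers (9 of 10 tested), and 5.63 to 6.92 against 4.77 to 5.79 for mast cell markers (6 of 8, with Fcer1a and Ms4a2 dim). It was 8.58 to 9.18 against 7.93 to 9.15 for macrophages (10 of 10), 5.07 to 6.55 against 4.90 to 5.67 for lymphocytes (10 of 12, Ms4a1 dim) and 7.79 to 9.16 against 7.77 to 8.61 for fibroblasts (10 of 10). The part of these cell types, muscle included, in the Ormdl3 and Sptlc1 values was not tested.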

How the data were processed

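The authors deposited 1 table of log2 signals with 41345 probes and a column for each of 8 tumours (4 per genotype). Per the submitters' processing notes, Affymetrix Expression Console and Transcriptome Analysis Console were used, with background and scaling steps not given in the sources used here. Array medians lay between 4.81 and 4.87, so the log2 values were used as deposited. Arrays carry no read depth, and their number limits the precision.

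Of the probes, 23521 had 1 gene symbol in the platform annotation and 1814 had several, which were left out. The brightest probe stood for a gene, and genes in the dimmest 25% (mean under 4.06) were not tested. Differences were fitted over 16635 genes with limma 3.58.1 in R 4.3.3 (lmFit, eBayes with an intensity trend), two-sided, with Benjamini-Hochberg adjustment and a threshold of 0.05. On data simulated for this comparison over 16635 genes, the fit recovered 18.1% of genes changed 1.5-fold and 55.8% of those changed 2-fold. In each of 20 runs 200 genes were changed, by 1.5-, 2-, 4- or 8-fold, and there were 7.15 false calls per run. In the tumours no gene passed, so the adjustment was stricter there, and these shares may overstate what would be recovered. The members and the gene lists were chosen with earlier results of these data known. Genes named are the members, Erbb2, the 5 nearest tested genes on each side of Ormdl3 (beside the other Ormdl genes, those with groups that do not overlap), per list the 3 of smallest p and any with groups that do not overlap, and the 8 most and 3 least alike to Ormdl3 (5 most alike for 4 other members), without predicted or clone names. Others were named after their values were seen. A planned pooled correlation of Ormdl3 with the members was replaced by deviations from the genotype means. Figures were drawn with matplotlib 3.10.9.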

Additional observations from a re-analysis of the deposited data

Results flagged for a closer look

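In 98 groups of 4 tumours (49 genes in each genotype), 6 had 1 tumour far from the other 3 by Dixon's criterion, where chance gives about 1 in 20, or 4.9. None concerned an Ormdl gene or a measured subunit of serine palmitoyltransferase. Beside Ormdl3, Mien1 was 9.92 in NeuNT replicate 2 against 12.41 to 12.75 in the other NeuNT tumours, and Psmd3 was 7.91 in NeuNT replicate 1 against 8.37 to 8.43. Ugcg was 8.28 in NeuNT replicate 4 against 7.19 to 7.29, and Sphk1 was 5.94 in NeuNT/H1074R replicate 1 against 5.71 to 5.75. Beside Ormdl2, Mmp19 was 7.59 in NeuNT replicate 2 against 6.57 to 6.61, and Rdh5 was 5.31 in NeuNT/H1074R replicate 3 against 5.38 to 5.4.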

How the results depend on the processing

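Leaving out 1 tumour at a time gave an Ormdl3 difference of 0.61 to 0.77. It was 0.71 with quantile normalization, 0.65 with arrays centred on their medians and 0.66 with array weights. The Ormdl3 groups did not overlap with either scaling, as for 2.55% and 2.5% of tested genes. Groups that are apart stay apart when a tumour is left out or weighted, so those fits say nothing about overlap. Sptlc1 ran from 0.16 to 0.21 without single tumours. It was 0.22 and 0.16 with these scalings, where its groups did not overlap either. The differences without single tumours ran from −0.49 to −0.14 for Ormdl1, −0.24 to −0.04 for Ormdl2, −0.22 to −0.01 for Sptlc2, −1.63 to −0.53 for Sptlc3 and −0.23 to 0.16 for Sptssb. No gene passed the threshold without any single tumour, nor with other scalings, dim filters, probe rules, trends or array weights. Without NeuNT replicates 2 and 4, chosen after seeing the data, 1 unnamed clone gene passed, Sptlc3 turned to 0.10 and Sptssb to 0.35. Neighbours with groups that do not overlap numbered 0 to 1 for each Ormdl gene without single tumours (3.88% to 6.88% of tested genes then). They numbered 1 for Ormdl2 with centred arrays (2.5% of tested genes), and 1 for Ormdl1 and 1 for Ormdl2 without NeuNT/H1074R replicates 1 and 3 (19.6% of tested genes then). Without NeuNT replicates 2 and 4 they numbered 1 for Ormdl1 and 6 for Ormdl3 (13.9% of tested genes then). The median difference without single tumours ran from −0.25 to −0.03 in ceramide synthesis, −0.28 to −0.17 in complex sphingolipids, −0.11 to −0.02 in breakdown and −0.08 to 0.21 in substrate supply, which was −0.12 without NeuNT/H1074R replicates 1 and 3. The cause of these shifts was not tested. No paired analysis was possible because the labels give the tumours no numbers shared between genotypes. For dim Sptssb, the low signal limits what a difference can show.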
